A study of Mus musculus with 10 samples.

Results

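Dense clusters of accessible chromatin are stretches of the genome in which many separate open regions follow each other at short distances. They were found by sorting the 77076 accessible regions of the deposited table by position, joining neighbours while the gap between them was at most 12500 bp, and keeping the runs of at least 15 regions. Of 28137 runs, 385 (1.37%) qualified, and they held 7966 of the 77076 regions (10.3%). The regions come from ATAC-seq, in which a transposase cuts open DNA, and from 10 libraries. Each library was made from regulatory T (Treg) cells that had been sorted out of lymph nodes and spleen of mice made as mixed bone marrow chimeras. The groups were WT cTreg cells (3 libraries), WT eTreg cells (3 libraries), FntbKO cTreg cells (2 libraries) and FntbKO eTreg cells (2 libraries), where cTreg and eTreg are the central and effector subsets and FntbKO cells lack Fntb. All 4 groups came from chimeras with no further treatment named. The part of Fntb that was deleted, the cell type in which it was deleted, the donors that made up each chimera, the ages of the mice and the markers of the sort are not given in the sources used here. Nothing in the labels says which libraries came from separate mice, so p-values measure the spread between these libraries.

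Treg cells restrain immune responses and depend on the transcription factor Foxp3. Central Treg cells carry homing receptors for lymph nodes and resemble resting T cells, whereas effector Treg cells are activated and turn on genes for migration into tissues and for suppression. Genes that define a cell's identity are often surrounded by many enhancers, DNA elements bound by transcription factors that can act on a gene from a distance, so that closely spaced open regions tend to gather around them. Fntb encodes the beta subunit of farnesyltransferase, which adds a lipid of the isoprenoid family, farnesyl, to lamins, RAS family members and other proteins.

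A region of a dense cluster lay over the promoter of a gene in 471 cases, and between WT cTreg and WT eTreg cells 8 of these promoter regions were called, at an adjusted p under 0.05. The share of all regions called in that comparison was 3.44%, against 1.70% of the promoter regions of the clusters. Sequences upstream of 6 of the genes are shown because they are the places where a change inside a dense cluster fell on a gene's start. Each is the 250 bases before the start site from RefSeq (GRCm38.p6), read 5′ to 3′ along the gene. Capitals mark any of 5 motifs, searched on both strands: TGANTCA (AP-1), TGTGGTT (RUNX), CCGGAAG (ETS), CTTTGAT (TCF/LEF) and GGGCGG (GC box). The first 3 belong to promoter regions that were lower in WT eTreg cells, and the last 3 to regions that were higher.
G0s2: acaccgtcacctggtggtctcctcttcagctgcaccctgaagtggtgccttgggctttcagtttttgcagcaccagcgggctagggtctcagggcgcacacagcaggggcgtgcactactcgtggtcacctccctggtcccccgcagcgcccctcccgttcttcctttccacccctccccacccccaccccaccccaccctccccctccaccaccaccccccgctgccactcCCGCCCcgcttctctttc
Txk: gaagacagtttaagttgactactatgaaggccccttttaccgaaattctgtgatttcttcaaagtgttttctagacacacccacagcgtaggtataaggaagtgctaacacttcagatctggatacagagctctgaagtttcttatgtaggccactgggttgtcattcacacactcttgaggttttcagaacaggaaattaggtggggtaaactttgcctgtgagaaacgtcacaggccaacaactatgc
Foxp1: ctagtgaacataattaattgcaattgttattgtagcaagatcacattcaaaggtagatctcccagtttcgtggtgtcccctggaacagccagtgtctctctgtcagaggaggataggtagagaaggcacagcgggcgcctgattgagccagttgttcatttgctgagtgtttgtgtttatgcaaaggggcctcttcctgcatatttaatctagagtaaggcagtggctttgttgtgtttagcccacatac
Ppp1r16b: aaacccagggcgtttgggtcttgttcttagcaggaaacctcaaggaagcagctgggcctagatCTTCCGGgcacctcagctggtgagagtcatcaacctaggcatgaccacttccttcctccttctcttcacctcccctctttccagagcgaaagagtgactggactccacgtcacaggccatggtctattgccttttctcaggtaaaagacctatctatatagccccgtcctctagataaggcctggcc
Tgfbr2: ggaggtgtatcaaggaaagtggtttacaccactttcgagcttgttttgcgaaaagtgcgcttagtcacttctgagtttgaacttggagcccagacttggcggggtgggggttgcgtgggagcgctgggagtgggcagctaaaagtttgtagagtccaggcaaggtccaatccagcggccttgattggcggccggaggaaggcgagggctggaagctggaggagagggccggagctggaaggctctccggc
Fam83g: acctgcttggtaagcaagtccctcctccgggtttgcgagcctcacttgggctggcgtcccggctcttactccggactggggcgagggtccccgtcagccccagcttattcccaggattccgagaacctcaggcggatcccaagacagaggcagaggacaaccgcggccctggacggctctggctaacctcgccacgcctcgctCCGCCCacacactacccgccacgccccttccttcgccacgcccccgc

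The G0s2 window lay at chr1:193273189-193273438 on the minus strand, and the region over it had 12.5 ± 1.31 and 5.65 ± 1.37 CPM (SD, n = 3 each) in WT cTreg and WT eTreg cells. CPM are counts scaled to a common library total. The log2 fold change, in which -1 means a fall by 2-fold, was -1.14 (SE 0.24, edgeR adjusted p = 0.00836). G0s2 encodes an inhibitor of the triglyceride lipase ATGL. The Txk window lay at chr5:72752778-72753027 on the minus strand, within a cluster over Txk and Tec, which encode related Tec family kinases of T cell receptor signalling. Its region had 83.9 ± 10.4 and 63.1 ± 5.21 CPM (SD, n = 3 each) in WT cTreg and WT eTreg cells, a log2 fold change of -0.41 (SE 0.11, edgeR adjusted p = 0.039). The Foxp1 window, at chr6:99266516-99266765 on the minus strand, belongs to 1 of the start sites of Foxp1, a forkhead factor that maintains T cell quiescence. Its region was small, with 7.87 ± 0.684 and 3.92 ± 1.37 CPM (SD, n = 3 each) in WT cTreg and WT eTreg cells, and had a log2 fold change of -0.98 (SE 0.27, edgeR adjusted p = 0.0437).

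Among the promoters that were higher in WT eTreg cells, Tgfbr2 encodes the type II receptor for TGF-beta. Its window lay at chr9:116175364-116175613 on the minus strand, of which the region covered 104 bases, with 31.2 ± 2.18 and 42.9 ± 4.44 CPM (SD, n = 3 each) in WT cTreg and WT eTreg cells and a log2 fold change of 0.46 (SE 0.12, edgeR adjusted p = 0.0294). The window of Ppp1r16b, which encodes a regulatory subunit of a protein phosphatase, lay at chr2:158666483-158666732 on the plus strand, and its region had a log2 fold change of 0.40 (SE 0.11, edgeR adjusted p = 0.0479). The window of Fam83g, at chr11:61684160-61684409 on the plus strand, had the largest rise of the promoter regions, 1.07 (SE 0.20, edgeR adjusted p = 0.00446). The other 2 called promoter regions, of Utp25 and Stambpl1, had log2 fold changes of 0.73 and 0.36.

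No AP-1, RUNX or TCF/LEF motif was found in the 6 windows, whereas Ppp1r16b held 1 ETS motif and G0s2 and Fam83g 1 GC box each. Over all 21237 RefSeq promoter windows of this length, the AP-1 motif stood in 6.14%, the RUNX motif in 3.82%, the ETS motif in 8.99%, the TCF/LEF motif in 2.83% and the GC box in 42.6%. In the 530 windows whose promoter met a region of a dense cluster the shares were 4.34%, 3.40%, 13.4%, 2.64% and 59.2%, in the same order. Such a region need not cover the letters searched. The 21237 windows were not split by whether their promoter met any accessible region. The differences therefore cannot be read as a property of dense clusters rather than of open promoters, and they were not tested. A missing motif says only that these letters are not in this window.

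Total counts ran from 5058328 to 15328775 per library, and the part of them that fell in dense clusters was 10.98% ± 0.0792 in WT cTreg (SD, n = 3), 10.79% ± 0.270 in WT eTreg (n = 3), 11.17% ± 0.166 in FntbKO cTreg (n = 2) and 11.14% ± 0.195 in FntbKO eTreg cells (n = 2). Fntb itself lay in none of the clusters. At 1 of its 11 regions, chr12:76837192-76837915, the 6 WT libraries had 29.0 to 36.4 CPM and the 4 FntbKO libraries 7.51 to 12.9, so genotypes did not overlap there. They did not overlap either at chr12:76844676-76845058, with 4.51 to 10.2 CPM in WT and 1.19 to 2.48 in FntbKO libraries. Summed over its 11 regions, Fntb had 151 to 159 CPM in WT cTreg, 109 to 123 in WT eTreg, 131 to 133 in FntbKO cTreg and 104 to 105 in FntbKO eTreg cells, so the FntbKO cTreg sums lay above those of WT eTreg cells. On the first principal component of all tested regions, which held 34.5% of the variance, FntbKO cTreg 1 lay at -114 and FntbKO cTreg 2 at -54.5. WT cTreg 2 lay at 9.95, against -42.1 and -30.0 for the other 2 WT cTreg libraries. Counts of calls are therefore also given without WT cTreg 2 and FntbKO cTreg 1.

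All 8 genes of a T and Treg cell marker list had accessible regions, with a summed level of 689 to 788 CPM in WT cTreg, 693 to 738 in WT eTreg, 775 to 811 in FntbKO cTreg and 802 to 828 in FntbKO eTreg cells. Among B cell markers 4 of 8 genes had a region, and those without one included Cd79a, Cd79b and Ms4a1. Those with one were Blk (34.9 CPM as the mean over the 10 libraries), Pax5 (29.2), Ebf1 (11.1) and Cd22 (1.23). Their summed level was 67.9 to 84.1 in WT cTreg, 86.1 to 90.8 in WT eTreg, 48.6 to 68.8 in FntbKO cTreg and 61.9 to 84.6 in FntbKO eTreg cells. Of 9 myeloid markers 4 had a region, and Lyz2, Csf1r, Fcgr3, S100a8 and S100a9 had none. The myeloid sums were 68.5 to 87.8, 87.3 to 89.1, 60.0 to 66.8 and 78.1 to 85.1 in the same order of groups. Of 8 CD8 T or NK cell markers 6 had a region, and Ncr1 and Klrk1 had none. The 6 were Prf1 (mean 18.9 CPM), Eomes (13.4), Nkg7 (7.61), Cd8b1 (7.50), Cd8a (2.29) and Klrb1c (1.82). Their sums were 50.1 to 53.5, 51.3 to 59.5, 49.9 to 60.1 and 42.1 to 42.7, so those of FntbKO eTreg cells lay below those of WT eTreg cells without overlap. Klrb1c of that list lay in a dense cluster, while no gene of the B cell, myeloid, dendritic cell or erythroid lists did. The part of other cells in the results was not tested.

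A typical dense cluster held 18 regions (median, range 15 to 57) over 81.3 kb (range 32.4 to 231 kb), and the median density was 24.0 regions per 100 kb. The clusters together spanned 33.4 Mb, of which the regions covered 3.38 Mb. There were 63 clusters of exactly 15 regions, and 79 runs of 14 fell just below the minimum. Regions inside clusters were not much wider than the others, with a median of 362 bp against 352 bp, but they held more counts, with a median over the 10 libraries of 637 against 402. Promoter windows were less frequent among them, at 5.91% of regions against 12.5% of the others, and positions inside a gene span more frequent, at 59.7% against 50.1%. The single region with the most counts held a median of 21.1% of a cluster's counts, with a range from 6.53% to 77.3%. Of all regions on chromosome 1, 14.4% lay in dense clusters, the highest share among the autosomes, compared with 5.86% on chromosome 5 and 3.31% on the X chromosome.

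**Figure D1:**
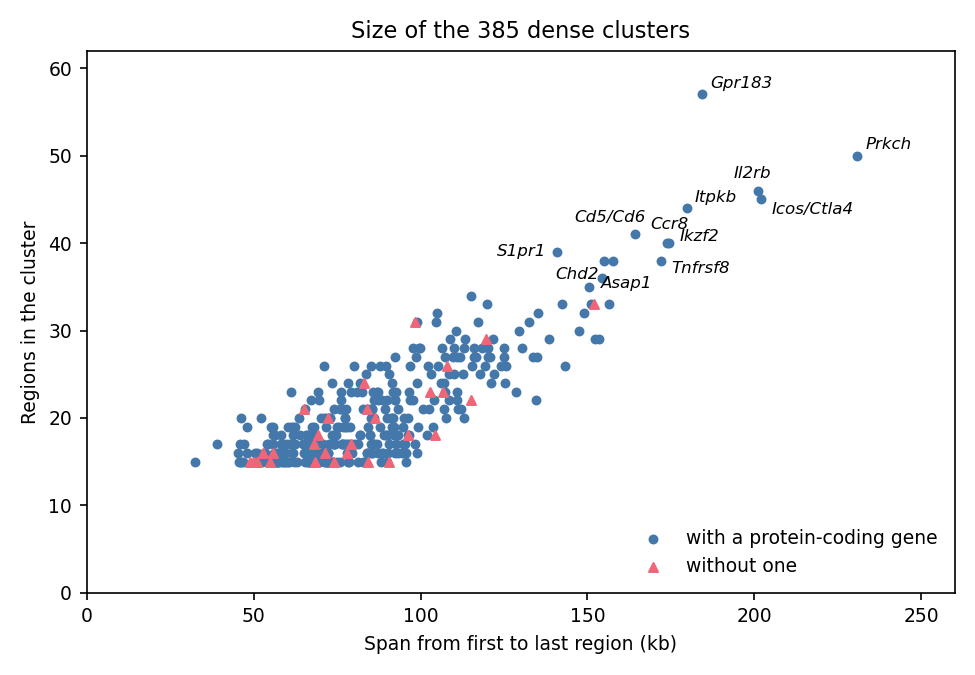
Number of regions (y axis) against the span from the first to the last region in kb (x axis) for the 385 dense clusters. Circles are clusters that overlap a protein-coding gene and triangles the 29 that do not, and the 12 clusters with the most regions are named, from 38 to 57 regions.

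Several of the largest clusters lay over genes with known roles in lymphocytes. The cluster with the most regions, 57 over 184 kb at chr14:121895554-122079781, had 39 regions inside Ubac2 and overlapped Gpr18 and Gpr183, the second of which encodes a receptor for oxysterols that guides lymphocyte position. Next came Prkch, which encodes the kinase PKC-eta, with 50 regions at chr12:73534645-73765474, 42 of them inside the gene. A cluster of 46 regions at chr15:78422584-78623733 overlapped Il2rb, the beta chain of the IL-2 receptor, together with Rac2 and Cyth4. The costimulatory receptor Icos and the inhibitory receptor Ctla4 shared a cluster of 45 regions at chr1:60853368-61055480, of which 34 lay outside gene spans. Other clusters among the 12 largest covered Itpkb (44 regions), Cd5 and Cd6 (41), the transcription factor gene Ikzf2 (40), Ccr8 and Cx3cr1 (40), S1pr1 (39), Tnfrsf8 and Tnfrsf1b (38), Asap1 (38) and Chd2 (38). The plot of cluster size against span places them. They were built differently: all 38 regions of the Asap1 cluster lay inside that gene, whereas 36 of the 39 regions of the S1pr1 cluster lay outside gene spans. S1pr1 encodes the sphingosine 1-phosphate receptor that lets T cells leave lymph nodes.

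In all, 840 protein-coding genes overlapped a cluster. A single gene was overlapped by 176 clusters, 42 clusters overlapped 5 or more genes, and in 199 clusters more than 50% of the regions lay in the span of 1 gene. Bach2, Dock10, Ets1, Foxp1 and Itpr1 each met a pair of clusters. The 29 clusters without a protein-coding gene included 33 regions at chr2:128365715-128517535, between Bcl2l11 and Spdye4c, which overlapped the long noncoding RNA gene Morrbid. Another, of 31 regions on the X chromosome, overlapped the long noncoding RNA gene Firre. Foxp3, also on the X chromosome, lay in no dense cluster.

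Of 21896 protein-coding genes, 840 (3.84%) were overlapped by a cluster, and the following counts for gene lists were not tested against each other or against that share. Of 18 central Treg genes 13 lay in clusters, among them Ccr7, Tcf7, Lef1, Bach2, S1pr1, Bcl2, Foxp1 and Foxo1. Of 39 effector Treg genes 12 did, among them Tigit, Icos, Irf4, Ccr8, Rora, Il10 and Tbx21, while Prdm1, Maf, Batf, Gata3 and Klrg1 did not. For Treg identity genes the count was 7 of 13, for T cell transcription factors 12 of 22 and for T cell receptor signalling 12 of 23. Only Lmna of 14 genes for prenylation and lamins, and 3 of 22 genes for signalling to mTOR and RAS (Pik3cd, Rac2 and Rap1a), lay in a cluster.

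Per kilobase of covered sequence, the mean level over the 10 libraries ran from 11.7 to 113 CPM per kb, a 9.66-fold range, with a median of 30.2. The highest value was on an unplaced scaffold, where 21 of 23 regions formed a cluster and a single region held 48.0% of its counts. Among clusters on chromosomes, those over Ago2 (65.3), Lnpep (63.8), Cd2 (61.9) and Dusp10 (61.5) had the highest levels per kb, and those over Nav2 (11.7), Med13l (11.8) and Maml2 (12.4) the lowest. A single region held 77.3% of the counts of the Lnpep cluster and 41.8% of the Dusp10 cluster, against 19.5% for Ago2 and 17.8% for Cd2. Cd2 encodes an adhesion receptor of T cells and Lnpep an aminopeptidase. Group levels were close: the median cluster had a summed level of 258 CPM in WT cTreg, 249 in WT eTreg, 270 in FntbKO cTreg and 265 in FntbKO eTreg cells.

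Between the WT subsets more clusters were called lower than higher in eTreg cells, and those that were lower included clusters over Bach2, Ccr7, Foxp1 and Bcl2, genes known from resting and central T cells. Of the 385 clusters 31 were called (8.05%), 8 higher and 23 lower in WT eTreg cells, where the share of all runs called was 4.23%, with 2.12% higher and 2.11% lower. The called changes were modest, with log2 fold changes from 0.21 to 0.60 in size. The share called was 2.94% for runs of a single region, 4.53% for runs of 2 to 4, 7.39% for runs of 5 to 14 and 8.05% for dense clusters, while the median SE of a log2 fold change was 0.39 for single regions and 0.07 for dense clusters. Runs of 5 to 14 leaned the same way, with 2.65% called higher and 4.74% lower, against 2.08% and 5.97% of dense clusters. The lean to lower calls was therefore not particular to dense clusters. WT cTreg and WT eTreg libraries were fully separate in each of the 31, and over all 385 clusters in 51 with higher and 67 with lower eTreg levels, so most clusters without overlap were not called. Overlap was not counted over all runs, so these counts cannot be read as a property of dense clusters. Leaving out 1 library gave 3 calls for WT cTreg 3 and 3 for WT eTreg 3, 9 for WT cTreg 1, 8 for WT eTreg 1 and 58 for WT cTreg 2. Leaving out both WT cTreg 2 and FntbKO cTreg 1 gave 68. A limma fit to the mean log2 CPM of each run's regions called none of the 31.

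Central Treg genes lay in 16 clusters, of which 6 were called lower in WT eTreg cells and 0 higher. The median log2 fold change of the 16 was -0.20, with 15 of 16 negative, while the median over all runs was -0.00. The called 6 included Bach2, Ccr7, Bcl2 and both clusters of Foxp1. S1pr1 (-0.20, adjusted p = 0.0645), the other Bach2 cluster (-0.20, adjusted p = 0.0815), Tcf7 (-0.16, adjusted p = 0.138) and Id3 (-0.07, adjusted p = 0.585) were not called. In the conventional naive CD4 T cell list, which shares Ccr7, Lef1 and Tcf7, among others, with these genes, the summed level was 891 to 937 CPM in WT cTreg and 721 to 838 in WT eTreg cells, and 944 to 970 and 863 to 870 in the FntbKO subsets. Its part in the result was not tested, and fewer cells of a type cannot be told apart from less open chromatin per cell.

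Bach2 encodes a transcriptional repressor that holds back effector differentiation. Its larger cluster held 29 regions, all inside the gene, at chr4:32328648-32437393. The summed level was 379.5, 340.2 and 391 CPM in WT cTreg cells, compared with 276, 291 and 249 in WT eTreg cells, so every eTreg library lay below every cTreg library. In FntbKO cells it was 453 and 437 in cTreg and 359.8 and 375 in eTreg. The WT log2 fold change was -0.44 (SE 0.07, edgeR adjusted p = 0.0025), with 28 of 29 regions lower and 6 of them called. Leaving out any 1 library did not end this call.

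Ccr7 encodes the chemokine receptor that draws T cells to the T cell zone. Its 28 regions at chr11:99091625-99207618 summed to 333, 323 and 351 CPM in WT cTreg and 243, 307 and 244 in WT eTreg cells, without overlap, and the log2 fold change was -0.34 (SE 0.08, edgeR adjusted p = 0.0244). The call was lost without WT cTreg 1 (edgeR adjusted p = 0.0676), WT cTreg 3 (0.136), WT eTreg 1 (0.128) or WT eTreg 3 (0.147). Foxp1 had clusters of 16 regions at chr6:99237753-99310047 and 28 regions at chr6:99322582-99453014, with log2 fold changes of -0.37 (SE 0.08, edgeR adjusted p = 0.0112) and -0.49 (SE 0.12, edgeR adjusted p = 0.0375). The larger of these had 279.9, 235 and 252 CPM in WT cTreg and 187, 214 and 142 in WT eTreg cells, without overlap. The call of the 16-region cluster was lost without WT cTreg 3 (0.0806), WT eTreg 1 (0.0689) or WT eTreg 3 (0.0698), with the edgeR adjusted p in parentheses. That of the 28-region cluster was lost without WT cTreg 1 (0.125), WT cTreg 3 (0.112), WT eTreg 1 (0.101), WT eTreg 3 (0.0612), FntbKO eTreg 1 (0.0569) or FntbKO eTreg 2 (0.057). The antiapoptotic gene Bcl2 had a cluster of 25 regions with -0.26 (SE 0.07, edgeR adjusted p = 0.0292), a call lost without WT cTreg 1 (0.0754), WT cTreg 3 (0.117), WT eTreg 1 (0.0956) or WT eTreg 3 (0.186).

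**Figure D2:**
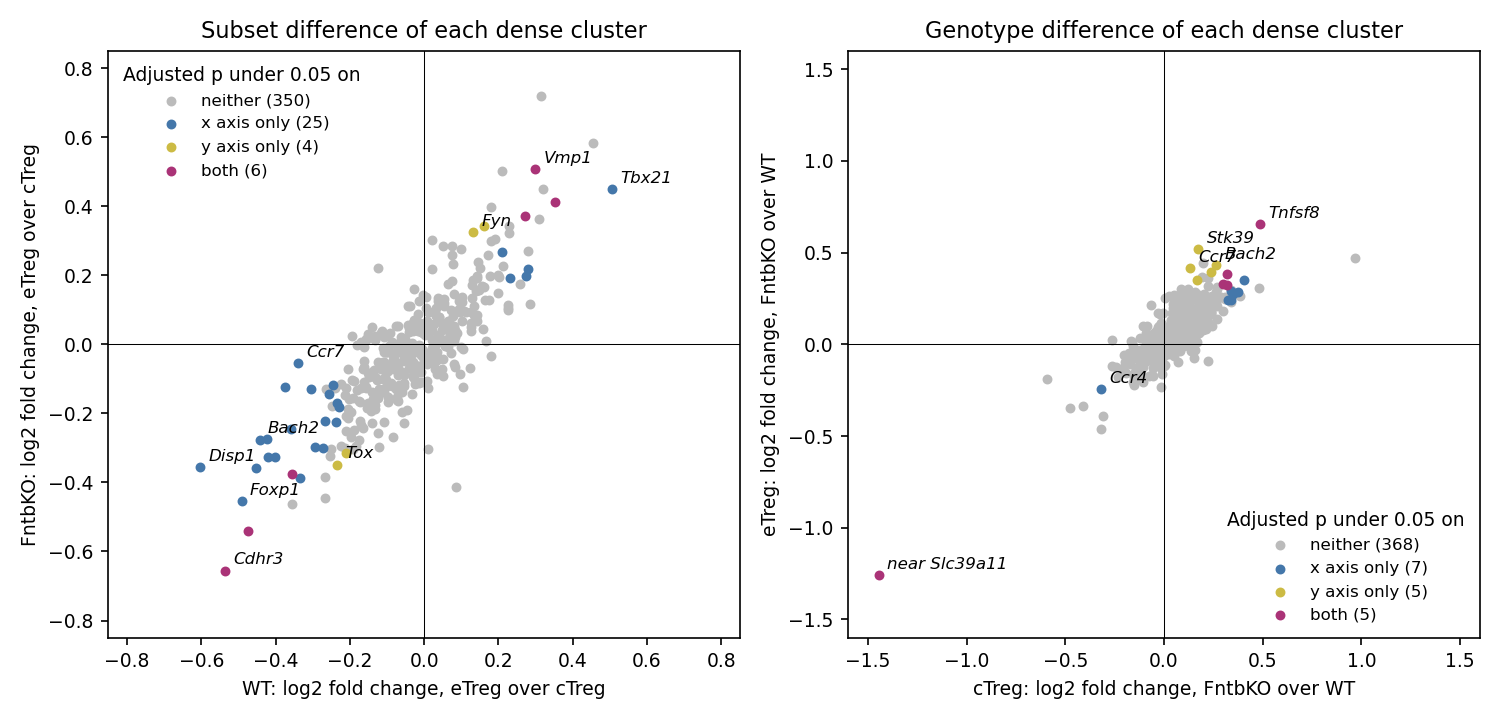
Log2 fold change of the summed counts of each of the 385 dense clusters. Left, eTreg over cTreg in WT (x axis) and in FntbKO (y axis); right, FntbKO over WT in cTreg (x axis) and in eTreg (y axis). Colours mark clusters with an edgeR adjusted p under 0.05 on the x axis only, the y axis only, both or neither. Bach2 and Foxp1 lie at -0.44 and -0.49 on the left x axis, and the cluster near Slc39a11 lies at -1.45 and -1.26 on the right.

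Effector Treg genes lay in 12 clusters, of which 1 was called higher and 1 lower in WT eTreg cells, with a median log2 fold change of 0.05, where 8.05% of all dense clusters and 4.23% of all runs were called. The one that rose was the cluster over Tbx21, which encodes the transcription factor T-bet, with 15 regions at chr11:97096100-97153229. It had 54.1, 77.7 and 62.4 CPM in WT cTreg and 82.3, 86.8 and 107 in WT eTreg cells, which did not overlap, and a log2 fold change of 0.51 (SE 0.12, edgeR adjusted p = 0.025). Within Tbx21, the regions chr11:97103819-97104494 and chr11:97112612-97113075 rose by 1.70 and 1.78 on the log2 scale. The cluster call was lost without WT cTreg 1 (adjusted p = 0.1), WT cTreg 3 (0.125) or WT eTreg 3 (0.135). The one that fell overlapped Exoc2 and Irf4, a transcription factor of effector Treg differentiation, with -0.25 (SE 0.07, edgeR adjusted p = 0.0372), a call lost without WT cTreg 1 (0.123), WT cTreg 3 (0.181), WT eTreg 1 (0.14) or WT eTreg 3 (0.188). None of the 6 clusters of Treg identity genes was called, nor any of the 13 clusters of T cell transcription factors or the 11 of T cell receptor signalling.

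Il10, which encodes the suppressive cytokine IL-10, shared a cluster of 17 regions with Mapkapk2. It had 194, 247 and 210.2 CPM in WT cTreg and 274, 279 and 341 in WT eTreg cells, a log2 fold change of 0.45 (SE 0.12, edgeR adjusted p = 0.0508), just short of the threshold. The cluster over Icos and Ctla4 had 651, 607 and 665 CPM in WT cTreg and 622, 684 and 634 in WT eTreg cells, which overlapped, and 0.01 (SE 0.06, edgeR adjusted p = 0.942). The plot of summed levels shows these clusters by library.

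**Figure D3:**
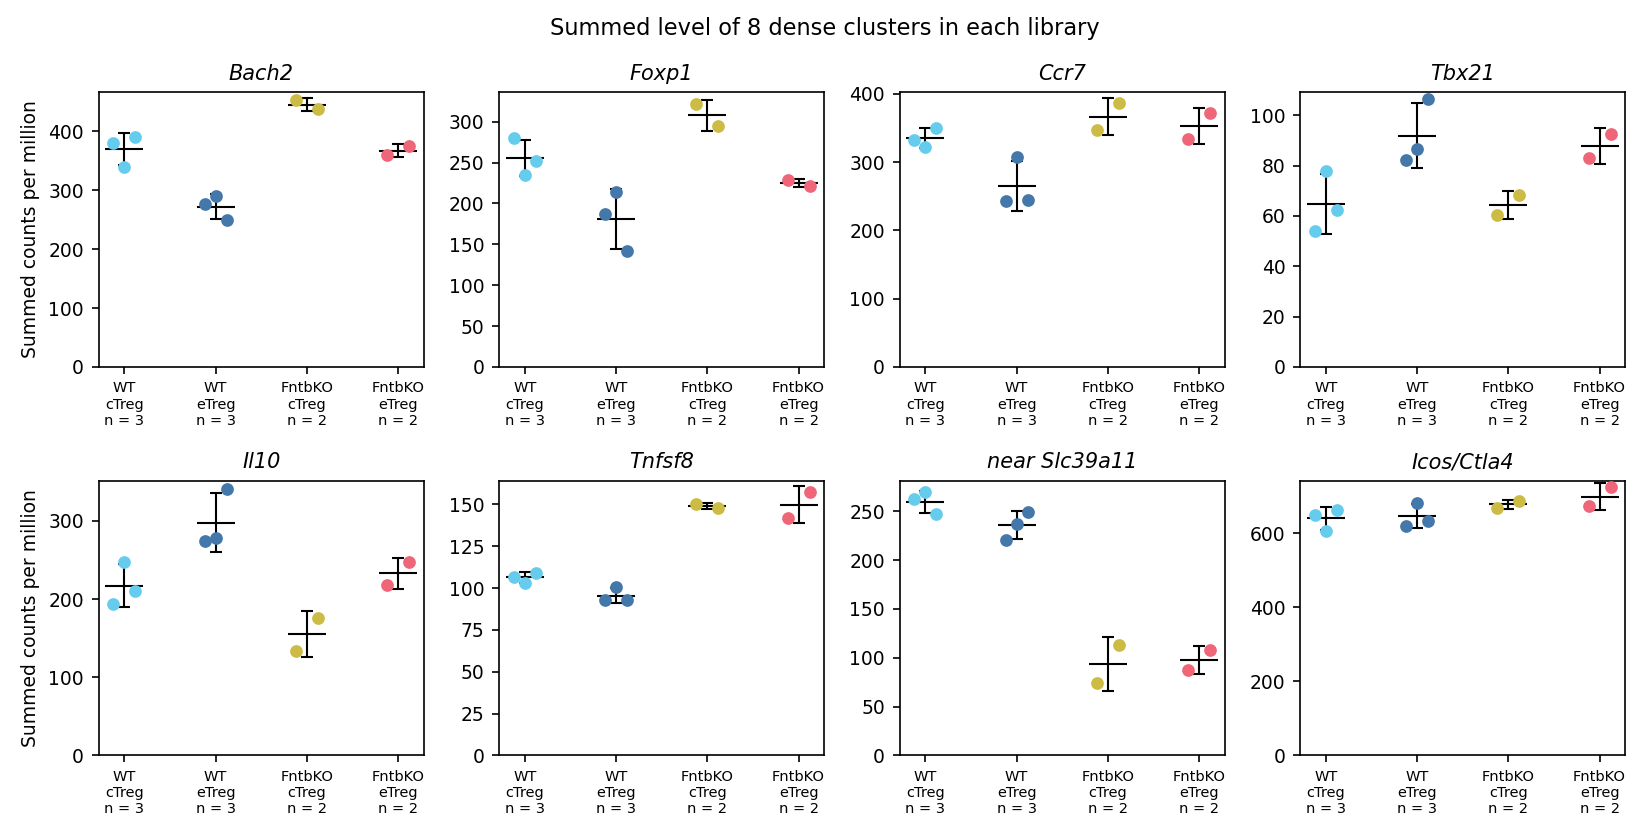
Summed CPM (y axis, from 0) of 8 dense clusters in each library (points), by group (x axis), with the mean and SD of the group (bars; n = 3 for WT and n = 2 for FntbKO groups). Bach2, Foxp1 and Ccr7 are lower in WT eTreg than in WT cTreg libraries without overlap, Tnfsf8 is higher in all 4 FntbKO libraries than in the 6 WT libraries, and the cluster near Slc39a11 is lower in all 4.

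Clusters outside the lists made up the rest of the calls. The largest falls were over Disp1, which encodes a transporter-like protein for Hedgehog ligand release, with -0.60 (SE 0.13, edgeR adjusted p = 0.0182), and Cdhr3, a cadherin-related gene, with -0.54 (SE 0.11, edgeR adjusted p = 0.0171). Med13l, a subunit of the Mediator kinase module, had -0.48 (SE 0.10, edgeR adjusted p = 0.0119), Nav2 -0.42 (adjusted p = 0.0154), and Cdk19, another Mediator kinase module gene, -0.42 (adjusted p = 0.0103). The cluster named by Emsy, 23 regions at chr7:98513213-98589384, had 1 region inside that gene and 22 outside gene spans. It began 11.4 kb from Lrrc32, the gene of the Treg surface protein GARP, and had -0.36 (SE 0.07, edgeR adjusted p = 0.00922). Rises were called over Lamc1, a laminin chain gene (0.35, adjusted p = 0.0176), Vmp1 (0.30, adjusted p = 0.0386), Klhl25 (0.28), Rgs3, a regulator of G protein signalling (0.27), Atxn1 (0.27), Impa2 (0.23, adjusted p = 0.0489) and Tpst2 (0.21). With 1 library left out, the number of these 13 calls that were lost by edgeR was 13 without WT cTreg 3 (adjusted p from 0.0501 to 0.191), 12 without WT eTreg 3 (adjusted p from 0.051 to 0.219), 10 without WT eTreg 1 (adjusted p from 0.0513 to 0.101), 8 without WT cTreg 1 (adjusted p from 0.0555 to 0.171), 6 without WT eTreg 2 (adjusted p from 0.0534 to 0.107), 3 without WT cTreg 2 (adjusted p from 0.0501 to 0.118), 2 without FntbKO eTreg 1 (adjusted p from 0.0566 to 0.0648) and 2 without FntbKO eTreg 2 (adjusted p from 0.0556 to 0.0644).

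In FntbKO cells, 10 of the 385 clusters (2.60%) were called between the subsets, 5 higher and 5 lower in eTreg, with 2.07% of all runs called (1.32% higher and 0.749% lower). The share called was 1.24% for runs of a single region, 2.41% for runs of 2 to 4 and 3.87% for runs of 5 to 14, against 2.60% for dense clusters, and these shares were not tested against each other. The changes were of the same modest size, from 0.32 to 0.66. Cdhr3 (-0.66 (SE 0.14, edgeR adjusted p = 0.0268)), Med13l (-0.54, adjusted p = 0.0258) and Emsy (-0.37, adjusted p = 0.0291) were lower, and Vmp1 (0.51 (SE 0.10, edgeR adjusted p = 0.0133)), Lamc1 (0.41, adjusted p = 0.0355) and Atxn1 (0.37, adjusted p = 0.0291) higher. These 6 were called in WT cells too, in the same direction, which is 6 of the 10 FntbKO calls and 6 of the 31 WT calls.

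Vmp1, which encodes a membrane protein of autophagy, had 185, 219.6 and 208 CPM in WT cTreg, 231, 263 and 259 in WT eTreg, 172 and 205 in FntbKO cTreg and 257 and 281 in FntbKO eTreg cells. This cluster held 18 regions, 11 of them inside Vmp1, and also overlapped Tubd1 and the noncoding gene Mir21a. Cdhr3 had 136, 107 and 133, 77.8, 101 and 79.9, 182 and 148 and 100.3 and 108 in the same order of groups. For both, eTreg and cTreg libraries did not overlap within either genotype. Of all 385 clusters, 84 with higher and 136 with lower eTreg levels were without overlap in FntbKO cells, so this was common there.

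The other 4 calls in FntbKO cells were higher levels over Agfg1 (0.34, adjusted p = 0.0397) and over Fyn, a Src family kinase gene of T cell receptor signalling (0.33, adjusted p = 0.0463), and lower levels over Tox, which encodes an HMG-box factor of T cell development and exhaustion (-0.35, adjusted p = 0.0396), and Dipk1a (-0.32, adjusted p = 0.0414). None of the 16 central Treg clusters was called, with a median of -0.10 and 12 of 16 negative. Bach2 had -0.28 (edgeR adjusted p = 0.087) and Ccr7 -0.05 (adjusted p = 0.842), and Tbx21 had 0.45 (adjusted p = 0.117). Leaving out 1 library turned the count of 10 into 0 for FntbKO cTreg 1 or FntbKO eTreg 2, 3 for FntbKO eTreg 1, 4 for WT cTreg 3, 6 for WT eTreg 1, 16 for WT cTreg 1, 27 for WT cTreg 2 and 29 for FntbKO cTreg 2. Leaving out both WT cTreg 2 and FntbKO cTreg 1 gave 0. DESeq2 called 32 (12 higher and 20 lower), limma-voom 27, and edgeR scaled by total counts 13 (8 higher and 5 lower). The limma fit to mean log2 CPM called none of the 10. With 1 library left out, the number of these 10 calls that were lost by edgeR was 10 without FntbKO cTreg 1 (adjusted p from 0.242 to 0.569), 10 without FntbKO eTreg 2 (adjusted p from 0.0782 to 0.351), 8 without FntbKO eTreg 1 (adjusted p from 0.0696 to 0.243), 6 without WT cTreg 3 (adjusted p from 0.051 to 0.0657), 4 without WT eTreg 1 (adjusted p from 0.0558 to 0.0639), 3 without WT eTreg 3 (adjusted p from 0.0517 to 0.0625), 1 without FntbKO cTreg 2 (adjusted p = 0.0798) and 1 without WT eTreg 2 (adjusted p = 0.0513).

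Between the genotypes, a noncoding cluster on chromosome 11 had by far the largest change of the called clusters, and most other called clusters were more open in FntbKO cells. In cTreg cells 12 clusters (3.12%) were called, 10 higher and 2 lower in FntbKO, against 1.24% of all runs (0.498% higher and 0.738% lower). In eTreg cells 10 (2.60%) were called, 9 higher and 1 lower, against 0.81% of all runs (0.469% higher and 0.34% lower). The median cluster had a log2 fold change of 0.07 in cTreg, where 257 of 385 were positive, and of 0.07 in eTreg, where 271 were positive, while the median over all runs was -0.00 and 0.00. By run size, the share called in cTreg cells was 0.67% for runs of a single region, 1.32% for runs of 2 to 4 and 2.73% for runs of 5 to 14. In eTreg cells these shares were 0.319%, 0.917% and 1.99%. Runs of 5 to 14 also had positive medians, 0.04 in cTreg, where 2241 of 3774 were positive, and 0.03 in eTreg, where 2113 were. These shares were not tested against each other. With 1 library left out, the cTreg count was 1 for FntbKO cTreg 1, 2 for WT cTreg 2 and 7 for WT cTreg 3, and it was 1 when both WT cTreg 2 and FntbKO cTreg 1 were left out. When each cluster's region with the most counts was left out it was 5. The eTreg count was 1 for FntbKO eTreg 2, 3 for FntbKO eTreg 1, 3 for WT eTreg 3, 5 for WT eTreg 1 and 23 for WT cTreg 2, and it was 36 when the same pair was left out. DESeq2 called 29 in cTreg and 33 in eTreg, and the limma fit to mean log2 CPM called 1 of the 12 and none of the 10.

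The cluster on chromosome 11 held 16 regions at chr11:113153341-113209093, with no protein-coding gene. It lay 35.8 kb from Slc39a11, a zinc transporter gene, and 366 kb from Sox9, and it overlapped the noncoding gene 2610035D17Rik. Its summed level was 262, 269.7 and 247 CPM in WT cTreg and 221, 237 and 249.7 in WT eTreg cells, compared with 74.2 and 113 in FntbKO cTreg and 87.8 and 108 in FntbKO eTreg. All 4 FntbKO libraries lay below all 6 WT libraries by a wide margin. For cTreg cells the log2 fold change of genotype was -1.45 (SE 0.14, edgeR adjusted p = 0.000961). For eTreg cells it was -1.26 (SE 0.15, edgeR adjusted p = 0.00415), and leaving out any 1 library ended neither call. Between subsets it was -0.14 in WT and 0.05 in FntbKO cells, with adjusted p of 0.591 and 0.916.

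Every 1 of the 16 regions was lower in FntbKO cells in both subsets, with 11 called in cTreg and 9 in eTreg. The region chr11:113173931-113174741 had 75.3, 72.3 and 68.8 CPM in WT cTreg and 51.9, 58.5 and 58.4 in WT eTreg cells. The FntbKO values were 10.4 and 19.6 in cTreg and 10.4 and 14.4 in eTreg. The cTreg log2 fold change by edgeR was -2.20 (SE 0.18, adjusted p = 1.95e-06). For eTreg cells it was -2.14 (SE 0.19, adjusted p = 1.36e-05). The smallest of the 11 called changes in cTreg, at chr11:113187454-113187793, was -0.87 (SE 0.19, adjusted p = 0.0218) by edgeR.

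Tnfsf8 encodes the CD30 ligand, a TNF family member. Its cluster of 16 regions at chr4:63840494-63906538 had 107, 103 and 109 CPM in WT cTreg, 92.5, 101 and 92.9 in WT eTreg, 150.3 and 148 in FntbKO cTreg and 142 and 158 in FntbKO eTreg cells. The genotypes did not overlap in either subset. Of all 385 clusters, 139 with higher and 38 with lower FntbKO levels were without overlap in cTreg cells, and 142 and 37 in eTreg cells. In cTreg cells the log2 fold change was 0.49 (SE 0.08, edgeR adjusted p = 0.00442). In eTreg cells it was 0.65 (SE 0.08, edgeR adjusted p = 0.000786). The first call was lost without FntbKO cTreg 1 (edgeR adjusted p = 0.0813) and the second without FntbKO eTreg 2 (0.103). The region chr4:63842172-63842638, inside the gene, rose in cTreg cells with 1.06 (SE 0.17, adjusted p = 0.00256), and in eTreg cells with 1.18 (SE 0.18, adjusted p = 0.00206).

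Clusters called in both subsets numbered 5, each in the same direction, which is 5 of the 12 cTreg and 5 of the 10 eTreg calls. Beside the pair above these were Ripor2, which encodes an inhibitor of RhoA (0.32 and 0.38, adjusted p = 0.0278 and 0.0146), a cluster over Clec16a and Socs1 (0.32 and 0.33, adjusted p = 0.0329 and 0.0406), and a histone gene cluster that reaches Btn2a2 (0.30 and 0.33, adjusted p = 0.042 and 0.0345). Socs1 encodes an inhibitor of cytokine signalling through JAK kinases. Ripor2 was the 1 cluster called in 3 comparisons, since it was also lower in WT eTreg than in WT cTreg cells (-0.24, adjusted p = 0.0418). Among fits without 1 WT library, that WT subset call was lost without WT cTreg 1 (edgeR adjusted p = 0.11) or WT cTreg 3 (0.212). It was also lost without WT eTreg 1 (0.104), WT eTreg 2 (0.082) or WT eTreg 3 (0.16). The genotype comparisons and the WT subset comparison share libraries.

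Calls in cTreg cells without one in eTreg cells were Mdfic (0.40), a cluster over Leprotl1 and Saraf, the second an inhibitor of store-operated calcium entry (0.37), a Gimap cluster of lymphocyte GTPases (0.35), a cluster between Tnfaip3 and Olig3 (0.34), Ugcg, the glucosylceramide synthase (0.34), and Atp10a (0.33), with adjusted p from 0.0232 to 0.0428. The cluster over Glb1 and Ccr4, a chemokine receptor of tissue homing, was lower in FntbKO cTreg cells. It had 266, 276 and 269 CPM in WT cTreg and 219.7 and 214 in FntbKO cTreg cells, and -0.32 (SE 0.07, edgeR adjusted p = 0.0231). In eTreg cells its log2 fold change was -0.24 (adjusted p = 0.094). Of these 7 calls and the 3 cTreg calls over Ripor2, Socs1 and the histone genes, by edgeR, 10 without FntbKO cTreg 1 (adjusted p from 0.167 to 0.547), 10 without WT cTreg 2 (adjusted p from 0.0612 to 0.144), 7 without FntbKO cTreg 2 (adjusted p from 0.0516 to 0.114), 5 without WT cTreg 3 (adjusted p from 0.0547 to 0.0841), 5 without WT eTreg 1 (adjusted p from 0.0531 to 0.0665), 5 without WT eTreg 3 (adjusted p from 0.0508 to 0.0669), 4 without FntbKO eTreg 1 (adjusted p from 0.0518 to 0.0587), 4 without FntbKO eTreg 2 (adjusted p from 0.0512 to 0.0585), 3 without WT eTreg 2 (adjusted p from 0.0511 to 0.0618) and 2 without WT cTreg 1 (adjusted p from 0.0641 to 0.0642) were lost.

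In eTreg cells the calls included the central Treg genes Bach2 and Ccr7. Bach2, with the library values given above, had 0.43 (SE 0.08, edgeR adjusted p = 0.0123) with 25 of 29 regions positive, and all 4 FntbKO libraries lay above the 3 WT eTreg libraries. Ccr7 had 334 and 372 CPM in FntbKO eTreg against 243, 307 and 244 in WT eTreg cells, and 0.42 (SE 0.09, edgeR adjusted p = 0.0378). Its region chr11:99170670-99171340 had a log2 fold change of -0.82 (SE 0.14, adjusted p = 0.00201) between the WT subsets and 0.93 (SE 0.15, adjusted p = 0.00495) between genotypes in eTreg cells by edgeR. In cTreg cells the genotype values were 0.26 for Bach2 (adjusted p = 0.0852) and 0.13 for Ccr7 (adjusted p = 0.509). The Bach2 call was lost without WT eTreg 3 (adjusted p = 0.0856), FntbKO eTreg 1 (0.0843) or FntbKO eTreg 2 (0.189). The Ccr7 call was lost without WT cTreg 3 (0.0619), WT eTreg 1 (0.143), WT eTreg 3 (0.179), FntbKO eTreg 1 (0.126) or FntbKO eTreg 2 (0.299).

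Of the 16 central Treg clusters, 15 had a positive log2 fold change in FntbKO eTreg cells, with a median of 0.23 and 2 called, and 13 in FntbKO cTreg cells, with a median of 0.07 and 0 called. Clusters of T cell receptor signalling genes were positive in 10 of 11 in eTreg cells, with a median of 0.20 and 0 called. Over all 385 clusters 271 were positive in eTreg and 257 in cTreg cells, each with a median of 0.07, so most clusters were positive. Effector Treg clusters had medians of -0.06 in cTreg and -0.05 in eTreg, and the Ccr4 cluster in cTreg was the 1 call among the 12. Il10 had 134 and 176 CPM in FntbKO cTreg and 218 and 247 in FntbKO eTreg cells, with genotype log2 fold changes of -0.48 (adjusted p = 0.114) and -0.35 (adjusted p = 0.255).

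Stk39, which encodes the kinase SPAK of ion transport and stress signalling, had 177, 168 and 167 CPM in WT eTreg and 245 and 244 in FntbKO eTreg cells. All 15 of its regions were positive, and the log2 fold change was 0.52 (SE 0.07, edgeR adjusted p = 0.00321), which was lost without FntbKO eTreg 2 (0.139). Fam107b (0.35, adjusted p = 0.0234) and a cluster of Ms4a6 genes (0.39, adjusted p = 0.0406) were also higher. Of the 5 eTreg calls over Fam107b, the Ms4a6 genes, Ripor2, Socs1 and the histone genes, by edgeR, 5 without FntbKO eTreg 1 (adjusted p from 0.168 to 0.262), 5 without FntbKO eTreg 2 (adjusted p from 0.161 to 0.275), 5 without WT eTreg 1 (adjusted p from 0.0521 to 0.15), 5 without WT eTreg 3 (adjusted p from 0.0868 to 0.178), 2 without WT cTreg 3 (adjusted p from 0.06 to 0.0619) and 1 without WT eTreg 2 (adjusted p = 0.0533) were lost. The largest positive log2 fold change of genotype in cTreg cells was not called: the cluster near Khdc1a had 0.97 with an adjusted p of 0.385, from 33.7, 107 and 77.4 CPM in WT to 176 and 109 in FntbKO cTreg. This cluster was singled out after its values were seen.

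No dense cluster was called in the interaction, which asks whether the subset difference itself differed between genotypes, and 0% of all runs or regions was called. At an unadjusted p under 0.05 there were 3 clusters by edgeR, 5 by DESeq2 and 12 by limma-voom. So neither a call in WT with none in FntbKO cells, as for Bach2 and Ccr7, nor a genotype call in 1 subset only was shown to differ.

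Log2 fold changes of single regions had a median SD within a cluster of 0.45 between the WT subsets, 0.50 between the FntbKO subsets, 0.39 between genotypes in cTreg and 0.41 in eTreg. Over all regions of the clusters pooled the SD was 0.51, 0.57, 0.46 and 0.47, and the median SE of a single region was 0.26, 0.31, 0.28 and 0.29. Both kinds of SD include the error of the estimates. A median over clusters and a pooled SD, which also holds differences between clusters, are unlike measures. Their order therefore does not show whether regions of a cluster changed alike. Between the WT subsets 327 regions of the clusters were called (143 higher and 184 lower, 4.13% of 7920 tested, against 3.44% of all regions, of which 1.83% were higher and 1.61% lower), and between the FntbKO subsets 134 (89 higher and 45 lower, 1.69% against 1.36%, of which 0.966% were higher and 0.39% lower). Between genotypes 35 were called in cTreg cells (9 higher and 26 lower, 0.442% against 0.568%, of which 0.19% were higher and 0.378% lower) and 24 in eTreg cells (10 higher and 14 lower, 0.303% against 0.35%, of which 0.181% were higher and 0.169% lower). With 1 library left out, the WT count was 61 for WT cTreg 3, 65 for WT eTreg 3, 78 for WT cTreg 1 and 100 for WT eTreg 1. The FntbKO count was 1 for FntbKO cTreg 1 or FntbKO eTreg 2, 19 for FntbKO eTreg 1, 76 for WT cTreg 3, 86 for WT eTreg 1, 209 for WT cTreg 2 and 266 for FntbKO cTreg 2. The cTreg genotype count was 5 for FntbKO cTreg 1, 17 for WT cTreg 2, 22 for WT cTreg 3 and 59 for FntbKO cTreg 2. The eTreg genotype count was 3 for FntbKO eTreg 2, 5 for FntbKO eTreg 1 or WT eTreg 3, 13 for WT eTreg 1, 15 for WT cTreg 3 and 52 for WT cTreg 2. With both WT cTreg 2 and FntbKO cTreg 1 left out, the 4 counts were 517, 5, 5 and 70.

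**Figure D4:**
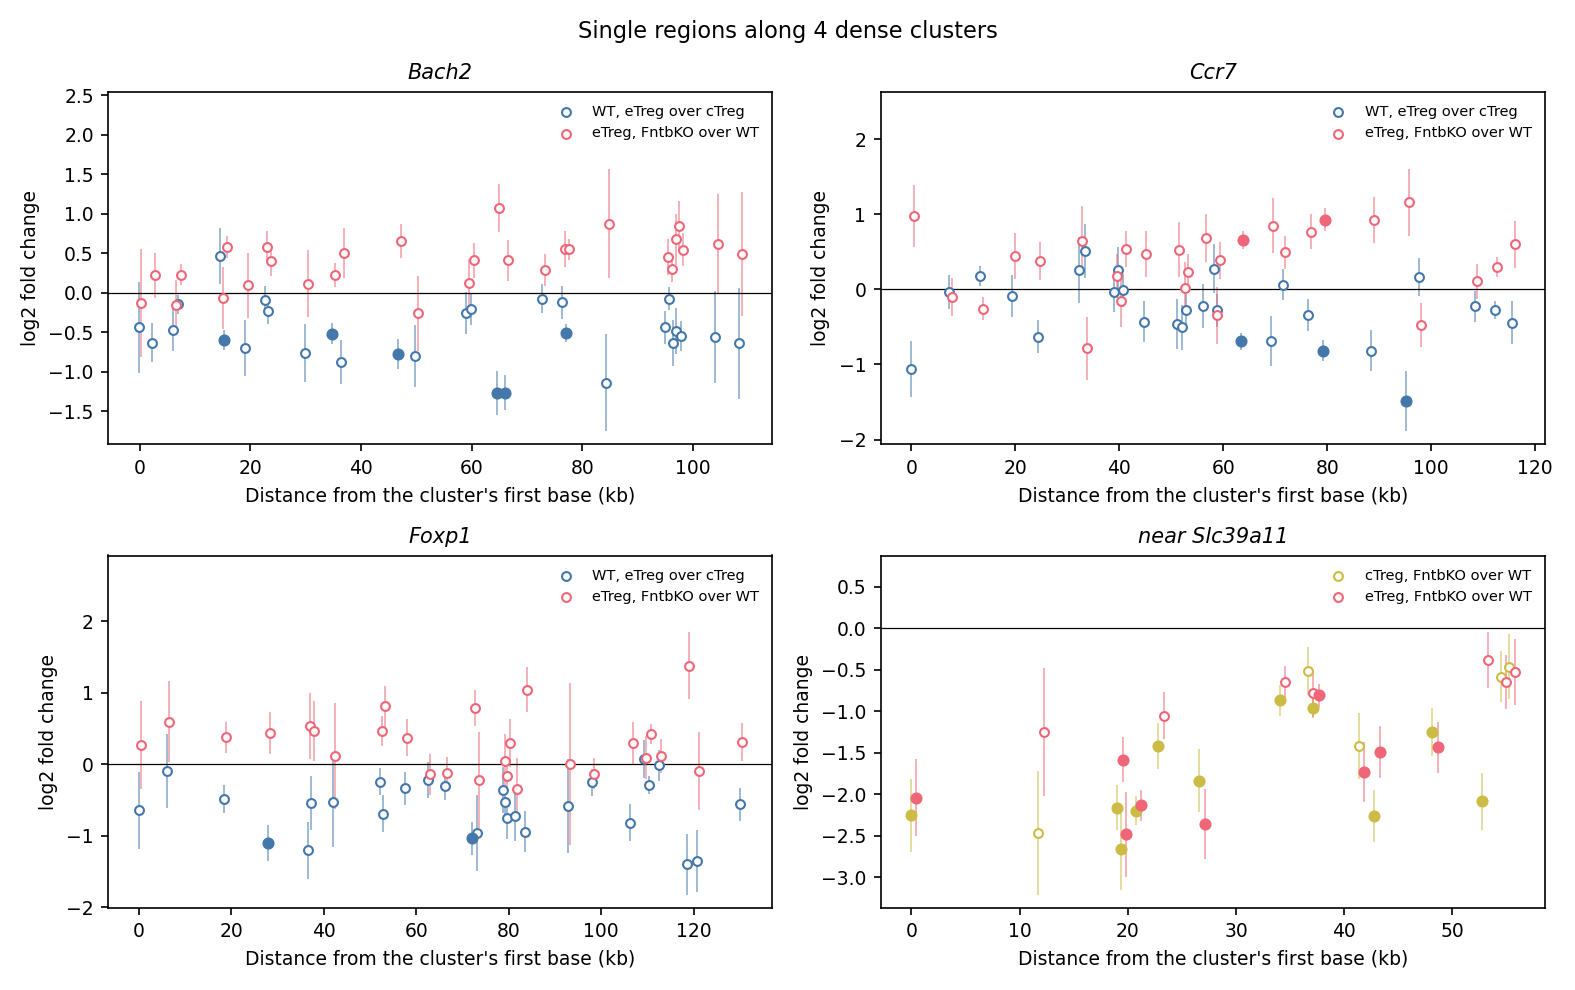
Log2 fold change (y axis, bars are SE of the edgeR fit) of each region along the Bach2 and Ccr7 clusters, the larger Foxp1 cluster and the cluster near Slc39a11, by distance from the cluster's first base in kb (x axis). Filled points have an adjusted p under 0.05. Regions of the Bach2 cluster are below 0 in 28 of 29 cases between the WT subsets, and all 16 regions near Slc39a11 are below 0 between genotypes in both subsets.

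Called regions of both directions stood in the same cluster in 31 of the 200 clusters that held a called region between the WT subsets, while 76 held only higher and 93 only lower regions. In FntbKO cells this was 4 of 102 clusters, and between genotypes 0 of 24 in cTreg and 0 of 14 in eTreg. Neighbouring called regions between the WT subsets went the same way in 88 of 127 pairs and opposite ways in 39, the closest of which were 1.89 kb apart and the median pair 27.0 kb. In clusters called as a whole, a median of 78.6% of regions shared the sign of the sum between the WT subsets and 91.7% between genotypes in cTreg, where over all clusters the medians were 62.5% and 63.2%. The calls were made on the sum of these same regions, so the higher shares follow at least in part from that choice. Of regions by position, 4.31% of cluster regions inside gene spans, 4.24% of those outside and 1.70% of those over promoters were called between the WT subsets, and no promoter region of a cluster was called in the other 3 pairwise comparisons.

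S1pr1 is a case in which the sum hides single regions. Its 39 regions at chr3:115661062-115801928 summed to 527, 550.4 and 567 CPM in WT cTreg and 457, 510.3 and 468 in WT eTreg cells, with -0.20 (SE 0.06, edgeR adjusted p = 0.0645). Inside the gene, the region chr3:115714709-115715234 had 57, 53 and 54.8 in WT cTreg and 33.4, 38.7 and 32.4 in WT eTreg cells, and fell with -0.65 (SE 0.12, adjusted p = 0.00276) by edgeR. That region begins 53.6 kb into the cluster, and 31.3 kb into it the region chr3:115692409-115692783 rose, with 1.04 (SE 0.24, adjusted p = 0.0168). Over the whole cluster 2 regions were called higher and 3 lower.

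In the Icos and Ctla4 cluster 2 regions were called higher and 2 lower, and the summed change was near 0. The region chr1:60874906-60875697, outside gene spans, had 9.5, 15.8 and 16.1 CPM in WT cTreg and 21.2, 26.5 and 34.4 in WT eTreg cells, and 0.98 (SE 0.23, adjusted p = 0.0232). Inside Icos the region chr1:60977638-60978073 had -0.47 (SE 0.13, adjusted p = 0.0419). Prkch had 3 regions called higher and 3 lower: the 3 higher ones lay 176 to 221 kb from the start of the cluster and the 3 lower ones 46.3 to 145 kb. Il10 had 4 called higher, all outside gene spans at 8.06 to 46.3 kb from the start of its cluster, and 1 lower at 84.7 kb, inside Mapkapk2, which encodes a kinase downstream of p38. Tmem64 had 6 lower and 1 higher, with -0.36 (SE 0.10, edgeR adjusted p = 0.067) for the sum.

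**Figure D5:**
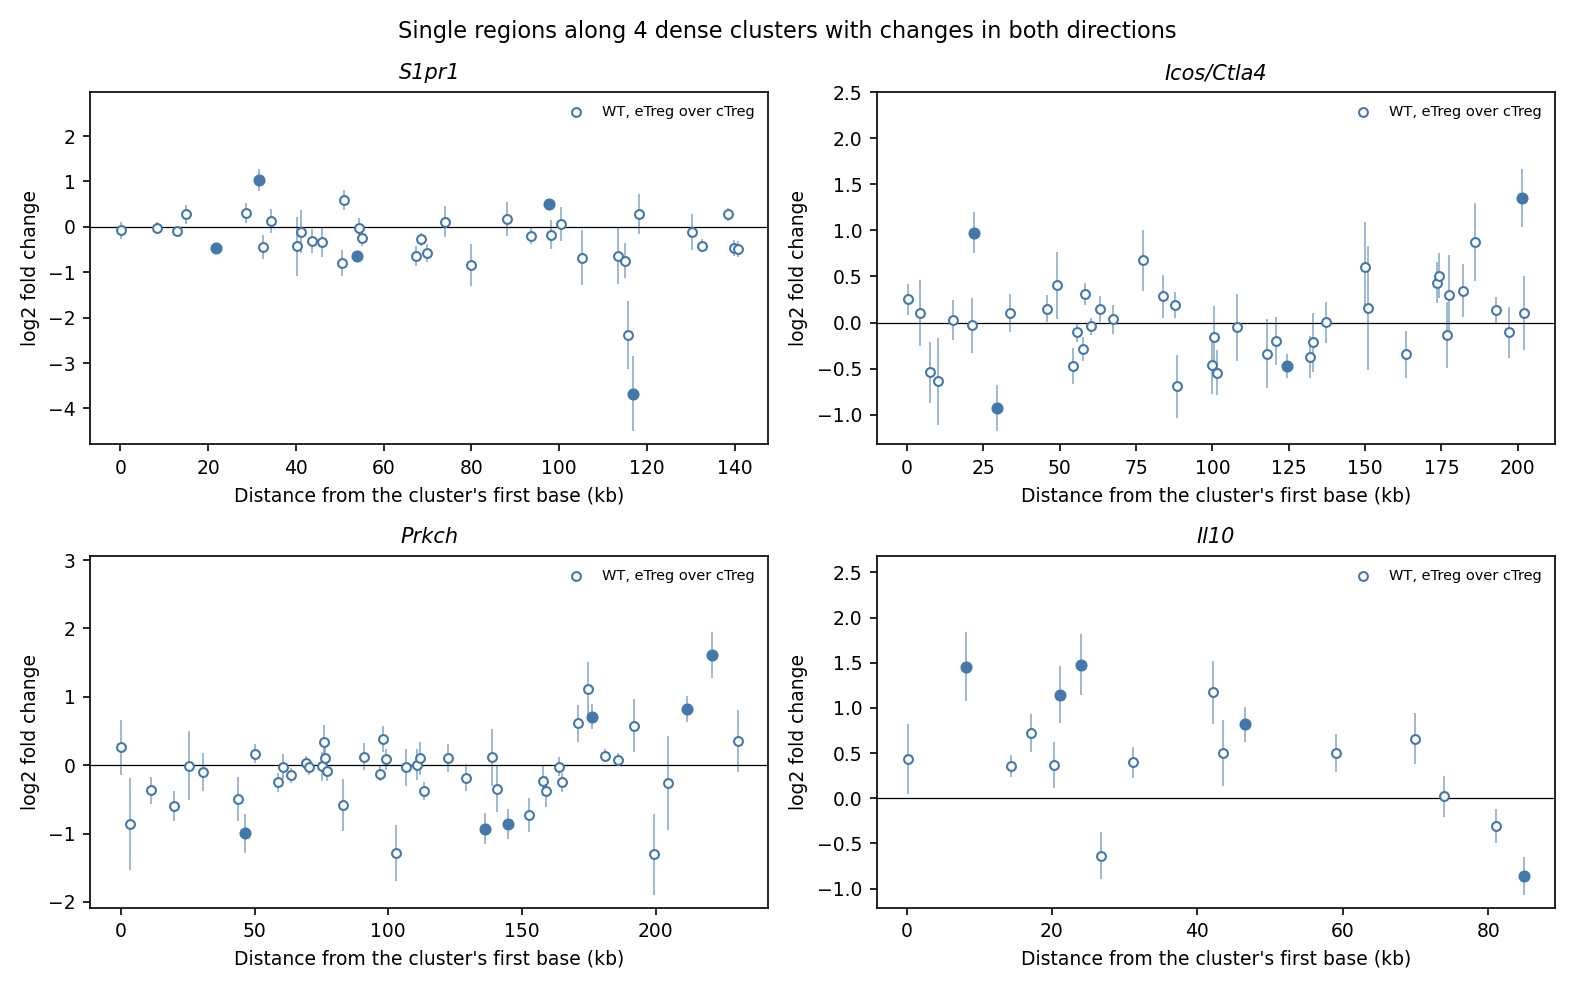
Log2 fold change of eTreg over cTreg in WT (y axis, bars are SE of the edgeR fit) of each region along the S1pr1, Icos and Ctla4, Prkch and Il10 clusters, by distance from the cluster's first base in kb (x axis). Filled points have an adjusted p under 0.05. Filled points stand on both sides of 0 in each of the 4 clusters, with 3 higher and 3 lower in Prkch.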

How the data were processed

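ATAC-seq counts were used from 10 libraries of sorted Treg cells. The authors deposited raw read counts per region for 77076 regions, with no normalization, per the file headers. The submitters' processing notes name bedtools, SAMtools, MACS2 2.1.1, Trimmomatic 0.36 and Picard 2.9.4, and as builds GRCm38 and mm10. Which aligner was used, and how a common region set was formed, is not given in the sources used here. Between 66.7% and 79.2% of the counts of a library were even, as if both mates of a pair had been counted, so halved counts were an alternative. Total counts per library, from 5058328 to 15328775, set the precision. Coordinates are printed as in the table.

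Counts were summed over each of the 28137 runs of regions and tested in R 4.3.3 with edgeR 4.0.16 (glmQLFit and glmQLFTest). The fit used TMM scaling, filterByExpr on the 4 groups, 1 mean per group and all 10 libraries, which leaves 6 residual degrees of freedom. The same fit was made on single regions. Benjamini-Hochberg adjustment ran over all 27908 runs or 76216 regions tested, of which 385 and 7920 belonged to dense clusters, and a call is an adjusted p under 0.05. CPM are TMM-scaled for clusters and for their regions, and scaled by total counts for the marker lists and Fntb. SD are over the libraries of a group, and SE were computed from the log2 fold change and the test statistic. Scripts were tested on simulated counts.

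Gene spans and promoter windows came from RefSeq (GRCm38.p6), and a cluster is called by the protein-coding genes it overlaps, which is a position and not a shown target. The clusters named are the 12 with the most regions and, per comparison, the 8 largest rises and 8 largest falls among called clusters. Up to 4 examples per gene list and up to 6 clusters with called regions of both directions were added, with up to 3 called regions of a named cluster by smallest p. The rule, the members and the gene lists were chosen with earlier results of these data known. Alternatives were DESeq2 1.42.0, limma 3.58.1, other scalings and filters, other gaps and leaving out libraries. Sequences of single accessible regions were not used here. One of the called clusters over central Treg genes counts in the totals and is not reported here.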

Additional observations from a re-analysis of the deposited data

How the results depend on the processing

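The counts of calls depended on single libraries more than on scaling or filters. Leaving out 1 library each gave 3 to 58 called clusters between the WT subsets (31 with all libraries), 0 to 29 between the FntbKO subsets (10), 1 to 14 between genotypes in cTreg (12) and 1 to 23 in eTreg cells (10). For single regions of the clusters it gave 61 to 467 (327), 1 to 266 (134), 5 to 59 (35) and 3 to 52 (24). The lowest cluster counts came without WT cTreg 3 or WT eTreg 3 (3 each), FntbKO cTreg 1 or FntbKO eTreg 2 (0 each), FntbKO cTreg 1 (1) and FntbKO eTreg 2 (1). Where 1 library of a FntbKO group was left out, the other was assumed to vary like the other groups. Without both WT cTreg 2 and FntbKO cTreg 1 there were 68, 0, 1 and 36 called clusters and 517, 5, 5 and 70 called regions, in the same order of comparisons.

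With the replicate number of the labels as a block, 65, 48, 34 and 39 clusters and 500, 286, 81 and 61 regions were called. Same-numbered cTreg and eTreg libraries correlated in their deviations from group means at 0.201, 0.0992 and 0.0404 in WT cells. WT cTreg and eTreg libraries of different numbers stood at -0.159 to 0.0563. In FntbKO cells the values were 0.221 for the same and -0.221 for different numbers. With 2 libraries in a group the deviations mirror each other, so these are 1 value. The labels do not say what the numbers mark. They were not used as pairs in the main fit, and whether the libraries are paired is not settled. DESeq2 called 32 clusters between the FntbKO subsets, 29 between genotypes in cTreg and 33 in eTreg, where it called 43 regions (24 higher and 19 lower). limma-voom called 27, 26 and 16 clusters in these 3 comparisons. Halved counts gave 19 clusters and 217 regions between the FntbKO subsets, and 41 regions between genotypes in eTreg. A gap of 6250 bp left 25 clusters, with 1, 1, 0 and 2 called clusters and 20, 9, 0 and 2 called regions, and a gap of 25000 bp made 1179, with 61, 41, 60 and 29 clusters and 1105, 413, 137 and 101 regions. A limma fit to the mean log2 CPM of a run's regions, which draws each run's spread towards a trend with level over all runs, called 0, 0, 1 and 0 clusters. Without each cluster's region with the most counts 5 clusters were called between genotypes in cTreg. Where no cause is shown by how an alternative was built, the cause was not tested.

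The 272 values of named clusters and regions, shares of counts among them, were recomputed 5053 times. In 0 recomputations did a log2 fold change that was called before or after take the other sign. Changes of sign in values called neither before nor after were not counted. A call was lost in 1043 recomputations and gained in 9 (all of S1pr1), and 8, shares of counts under other gaps, moved. The interaction had 0 called clusters and 0 called regions in every alternative run. With 2 libraries in each FntbKO group, changes near the SE could not be detected at this depth.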
